A study of Mus musculus with 3 samples.

Results

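The genes described here are 9 neurotrophic ligands and receptors, Bdnf, Ntf3, Gdnf, Nrtn, Artn, Gfra1, Gfra2, Ntrk2 and Ngfr, among the 33696 features counted in single cells of the mouse larynx. They were taken by symbol, and all 9 were found. They were proposed because earlier results of these same data had shown members of the group in epithelial classes, with Bdnf in basal cells and Gfra1 in airway cells. Their levels across cell classes are therefore given as a description without a test. The tests below concern cells with and without Lrig1 UMIs, a contrast that the choice did not use.

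Single-cell RNA sequencing had been run on 3 libraries of tdTomato-positive cells sorted from larynges of Lrig1CreERT2/+; ROSALSL-tdTomato/+ reporter mice, 24 h after tamoxifen-induced recombination. In these mice the Lrig1 promoter drives the Cre, so each library holds cells that had Lrig1 promoter activity at injection. Each library pooled 10 larynges, 5 from males and 5 from females, and the age of the mice is not given in the sources used here. All 3 libraries belong to 1 condition without an untreated arm, so the groups compared are groups of cells inside each library, and the spread is that between the 3 pools.

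Neurotrophins are secreted proteins that keep sensory and autonomic neurons alive and guide their endings. Bdnf acts through the receptor tyrosine kinase TrkB, encoded by Ntrk2, and Ntf3 acts mainly through TrkC, encoded by Ntrk3, while Ngfr encodes the p75 receptor, which binds all neurotrophins and is a familiar marker of basal cells in stratified and airway epithelium. Gdnf, Nrtn and Artn are ligands of the GDNF family. Gfra1 and Gfra2 encode the membrane-anchored co-receptors that prefer Gdnf and Nrtn, and the signal into the cell is carried by the kinase Ret or, in cells without it, by Ncam1. The larynx is densely innervated by sensory fibres that run close to its epithelium, and its intrinsic muscles are supplied by motor axons.

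Of 60530 barcodes in the 3 libraries, 49393 met the quality limits, and removal of doublets left 44542 (13222, 7201 and 24119 cells in libraries 1, 2 and 3). The kept cells carried 154708381, 109034236 and 282367690 UMIs, with medians of 10365, 13871 and 9833 UMIs a cell. Between 46 and 165 barcodes were shared by a pair of libraries, and between 22 and 103 were so among the kept cells. Classes were set by fixed UMI counts of marker genes. These gates gave 27388 epithelial cells, 4806 fibroblasts, 1079 muscle satellite cells, 574 endothelial cells, 269 leukocytes and 161 mural cells (pericytes and smooth muscle), and left 10248 cells (23.0%) unassigned, 5676 of them with epithelial markers leading. Surface epithelium was divided by layer (basal, secretory, suprabasal squamous or mixed) and by region, as squamous (13205 cells), airway (2949 cells) or undetermined (9420 cells), and the 19 classes with at least 10 cells in every library are shown. Of 3 marker genes kept out of the gates for each class, all 3 were highest in the class they mark for basal, suprabasal, ciliated, neuroendocrine, fibroblast, satellite, endothelial, leukocyte and mural cells, and 2 of 3 were so for gland, tuft and thyroid cells. For the secretory layer 0 of 3 were, so "secretory" is used below only as the name of that gate. The endothelium came mainly from library 1, which gave 497 of its 574 cells. Mural cells numbered 90, 14 and 57 in libraries 1, 2 and 3, so their library 2 values rest on few cells.

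Levels are in CPM, the UMIs of a gene per 1000000 UMIs summed over all cells of a class in a library. UMIs count 3′ ends of transcripts, so isoforms of a gene were not told apart, and levels are compared between classes and not between genes. Bdnf, Ntrk2 and Gfra1 overlap annotated genes on the opposite strand, and how such reads were assigned is not given in the sources used here. The share of cells with at least 1 UMI rises with depth, and its 95% Wilson interval covers counting error only. Leukocytes and endothelium, with median depths of 9212 and 7173 UMIs a cell, served as the measure of free RNA for genes of the epithelium and of fibroblasts.

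Bdnf (ENSMUSG00000048482; GRCm39 chromosome 2, 109505045 to 109557475, plus strand) was an epithelial transcript in these cells. Of its 6484 UMIs, 83.0% were in the epithelium and 63.6% in basal cells of the squamous region alone. In that class its level was 27.2, 26.9 and 31.0 CPM in libraries 1, 2 and 3, or 28.4 ± 2.27 CPM (SD, n = 3), and 1840 of 7896 cells had a UMI (23.3%, 22.4 to 24.2%). The squamous basal cells of every library lay within a narrow band and above all other classes except neuroendocrine and tuft cells.

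The highest mean level of Bdnf was in the 105 neuroendocrine cells, a rare sensory-like epithelial type, at 30.2, 52.5 and 45.2 CPM, with 33.3% of the cells positive (25.0 to 42.8%). Their range overlapped that of squamous basal cells, and their median depth was higher, at 25718 against 17349 UMIs a cell. The 132 tuft cells, chemosensory epithelial cells, gave 11.0, 10.4 and 31.8 CPM, so that library 3 alone reached the basal level. Basal cells of the airway region gave only 2.99, 6.17 and 1.03 CPM, and the secretory airway gate gave 0.442, 0.583 and 0.720 CPM with 0.614% of cells positive. Among basal cells Bdnf was thus high in the squamous region and low in the airway region. No UMI of Bdnf was found in 574 endothelial cells or in 269 leukocytes, which allows shares of up to 0.523% and 1.12%. With every cell thinned to 5000 UMIs, 11.0, 10.6 and 11.7% of squamous basal cells remained positive against 0.201, 0.317 and 0.530% of secretory airway cells.

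Ntf3 (ENSMUSG00000049107; chromosome 6, 126078375 to 126143873, minus strand) was the most widely detected ligand, with a UMI in 21133 of the 44542 cells (47.4%). Its highest mean level was not epithelial. Muscle satellite cells, the stem cells of skeletal muscle, gave 123, 159 and 138 CPM (140 ± 18.2, SD, n = 3). Squamous basal cells gave 95.3, 104 and 126 CPM, airway basal cells 81.7, 121 and 118 CPM, and the secretory airway gate 79.9, 77.8 and 88.2 CPM. The ranges of satellite and basal cells overlapped, and region made little difference to Ntf3 within the epithelium.

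Ntf3 was low in several specialised classes. Ciliated cells gave 30.3, 16.9 and 30.2 CPM, neuroendocrine cells 8.17, 5.996 and 18.1 CPM, and leukocytes, the class taken as background, 3.12, 2.17 and 2.62 CPM with 2.60% of cells positive. Neuroendocrine cells therefore had the highest mean of Bdnf and nearly the lowest of Ntf3. Endothelium gave 46.6, 30.2 and 40.6 CPM with 22.5% of cells positive, above the leukocyte share, so it was no measure of background for this gene. At 5000 UMIs a cell, 39.8, 46.9 and 44.0% of satellite cells and 34.5, 36.9 and 42.7% of squamous basal cells were positive, against 2.08% of leukocytes.

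Ngfr (ENSMUSG00000000120; chromosome 11, 95459638 to 95478561, minus strand) was highest in the basal classes. Its level was 60.5, 55.2 and 69.3 CPM in squamous basal cells (61.6 ± 7.12, SD, n = 3), 43.8, 46.9 and 60.1 CPM in airway basal cells and 44.7, 46.8 and 52.4 CPM in basal cells of undetermined region. A UMI was found in 4464 of 7896 squamous basal cells (56.5%, 55.4 to 57.6%). Under the fixed gates all 9 values of the 3 basal classes exceeded those of the secretory squamous gate, at 42.0, 41.3 and 42.8 CPM, and those of the secretory airway gate, at 17.1, 11.7 and 37.4 CPM. Without Cyp2f2 and Dcn in the gates, an alternative chosen after seeing the data, Ngfr in airway basal cells was 25.9, 17.9 and 45.7 CPM, below the secretory squamous gate (34.8, 34.9 and 40.5 CPM) in libraries 1 and 2, while squamous basal cells stayed highest at 55.9, 51.7 and 62.2 CPM. Outside the epithelium Ngfr was near the leukocyte level of 4.01, 2.17 and 5.23 CPM, as in satellite cells (5.60, 2.85 and 2.92 CPM) and fibroblasts (at most 3.74 CPM), and 0 of 161 mural cells had a UMI, which allows up to 1.86%.

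Ntrk2 (ENSMUSG00000055254; chromosome 13, 58954176 to 59281784, plus strand), the receptor of Bdnf, had the opposite distribution and lay in the stroma. Fibroblasts held 88.6% of its 12773 UMIs and the epithelium 3.18%. Fibroblasts with a UMI of Wnt16, Hhip or Col23a1 (3493 cells) gave 266, 229 and 283 CPM (260 ± 27.9, SD, n = 3) and 70.5% of them were positive (68.9 to 72.0%). The remaining 1313 fibroblasts gave 130, 69.2 and 115 CPM, lower in every library by factors of 2.05, 3.31 and 2.46, and mural cells gave 42.3, 47.9 and 78.5 CPM. Within each library both fibroblast groups stood above all other classes, and the first group stood above the other without overlap, while the range of the other fibroblasts met that of mural cells. The fibroblasts with such a UMI were somewhat deeper (median 10249 against 8743 UMIs a cell), and being chosen by a UMI they are deeper in part by construction, although a level in CPM is relative to depth.

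In the epithelium Ntrk2 was close to nil. Squamous basal cells, where Bdnf is found, gave 1.74, 0.225 and 0.449 CPM with 0.861% of cells positive, against 0 of 269 leukocytes (up to 1.12%) and 0.523% of endothelial cells. The 191 gland cells, which carry markers of submucosal glands, were the exception among epithelial classes, at 5.75, 1.35 and 38.0 CPM, a value that library 3 decided.

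**Figure D1:**
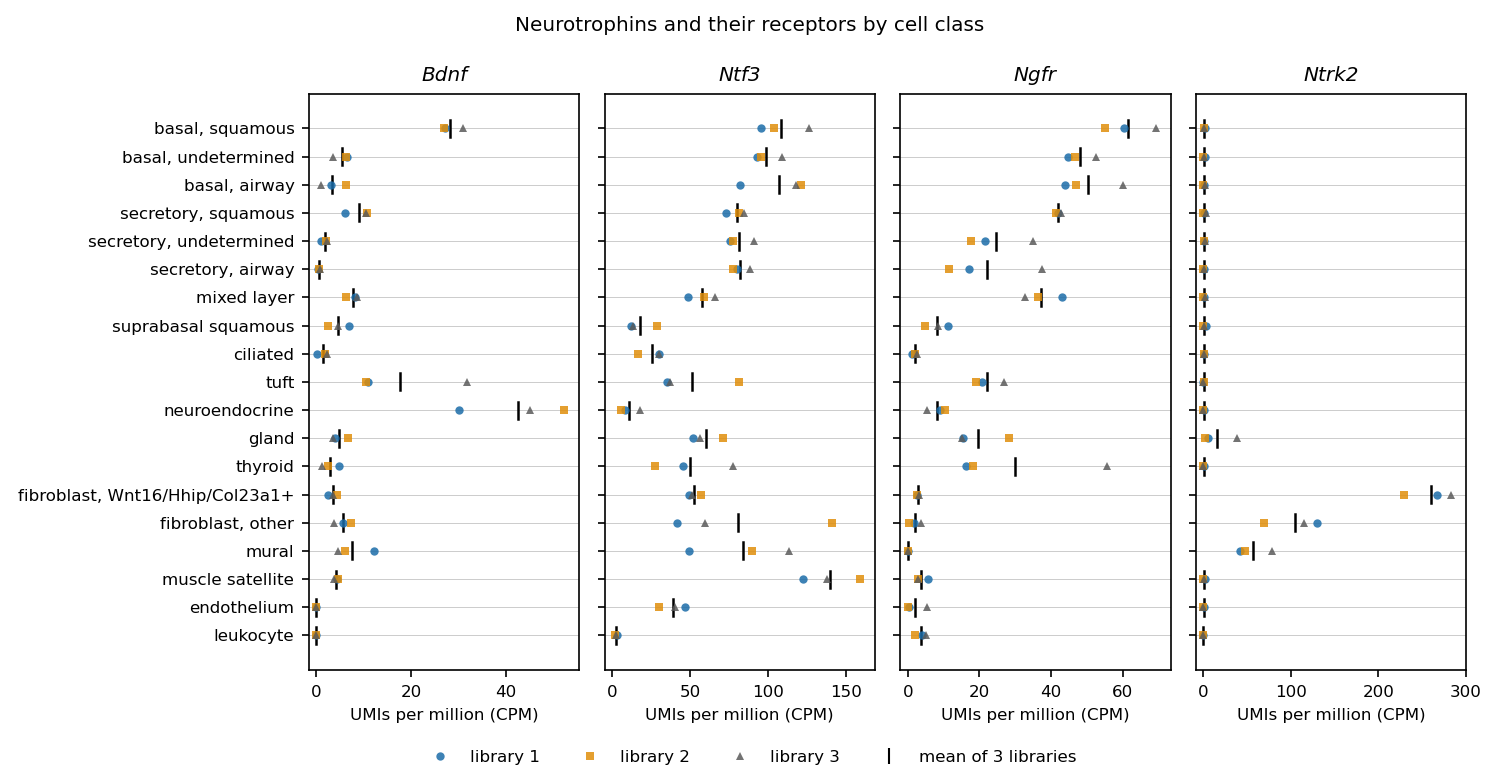
Levels of Bdnf, Ntf3, Ngfr and Ntrk2 in CPM for 19 cell classes, with 1 point for each of the 3 libraries and a black bar at their mean. Bdnf is high in neuroendocrine and squamous basal cells, Ntf3 is spread over most classes, Ngfr is highest in the basal classes and Ntrk2 is highest in fibroblasts and mural cells.

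The ligand and receptors were also compared within single cells. Of the 1840 squamous basal cells with a Bdnf UMI, 1160 also had a Ngfr UMI (63.0%, 60.8 to 65.2%) and 17 had a Ntrk2 UMI (0.924%, 0.578 to 1.47%). Cells with a Bdnf UMI were deeper than the other squamous basal cells, and in CPM their Ngfr level was 50.2, 60.1 and 77.7 against 63.8, 53.5 and 66.1, lower in library 1 and higher in libraries 2 and 3. Bdnf and Ngfr thus shared the layer, with no direction of the Ngfr level held by all libraries. In fibroblasts of the Wnt16, Hhip or Col23a1 group, 60 of 2462 Ntrk2-positive cells had a Ngfr UMI (2.44%), and the same 60 cells were 68.2% of the 88 Ngfr-positive cells of that group (57.9 to 77.0%). Ngfr was thus rare in these fibroblasts, and the share with Ntrk2 among the few cells with it was near the 70.5% of the whole group.

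Gfra1 (ENSMUSG00000025089; chromosome 19, 58223212 to 58444346, minus strand) had the largest number of UMIs of the 9 genes, 76435 in 16280 cells. Under the fixed gates its highest level was in the secretory airway gate, at 516, 538 and 262 CPM (439 ± 154, SD, n = 3), with 2126 of 2604 cells positive (81.6%, 80.1 to 83.1%). Airway basal cells gave 305, 417 and 196 CPM and squamous basal cells 9.66, 10.6 and 8.26 CPM. Library 3 was the lowest in both airway classes, yet its value there exceeded each squamous value many times over. Surface cells of undetermined region gave 245, 218 and 185 CPM, and 3888 of the 6277 cells in the secretory gate of that region had a UMI. At 5000 UMIs a cell, 76.7, 79.9 and 56.4% of secretory airway cells were positive and 4.60, 3.68 and 3.47% of squamous basal cells, against 1.04% of leukocytes and 1.53% of endothelial cells.

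Gfra1 was not only epithelial. Satellite cells gave 220, 215 and 263 CPM (233 ± 26.5, SD, n = 3) with 59.8% positive (56.8 to 62.7%). Fibroblasts of the Wnt16, Hhip or Col23a1 group gave 70.8, 97.9 and 72.3 CPM and the other fibroblasts 54.9, 177 and 135 CPM. Ciliated cells gave 66.5, 58.5 and 44.3 CPM, well under the airway cells among which they sit. Satellite cells thus combined a high level of Gfra1 with the highest level of Ntf3.

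Gfra2 (ENSMUSG00000022103; chromosome 14, 71127472 to 71217280, plus strand) was scarcer, with 2584 UMIs, and its profile differed from that of Gfra1. Leukocytes gave 42.8, 10.9 and 13.1 CPM with 16.4% of cells positive (12.4 to 21.2%), so library 1 set their mean. Fibroblasts of the Wnt16, Hhip or Col23a1 group gave 11.4, 13.7 and 22.9 CPM, against 2.62, 0.981 and 5.46 CPM in the other fibroblasts, which is higher in every library by factors of 4.36, 13.9 and 4.19. The group of fibroblasts that was high for Ntrk2 was thus the one that was high for Gfra2. In the epithelium squamous basal cells gave 4.45, 3.67 and 5.91 CPM and the secretory airway gate 0.442, 0 and 0.810 CPM, an order opposite to that of Gfra1. Within the secretory gates the airway level was 0.172, 0 and 0.212 times the squamous level. Among basal cells a ratio of squamous to airway could be formed in library 3 alone, at 0.719. Endothelium gave 1 UMI in 574 cells.

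Gdnf (ENSMUSG00000022144; chromosome 15, 7840327 to 7867060, plus strand), the preferred ligand of Gfra1, was the rarest member, with 739 UMIs in 596 cells (1.34%). Squamous basal cells gave 4.07, 2.21 and 2.72 CPM with 4.13% of cells positive (3.71 to 4.59%) and held 53.7% of its UMIs. Fibroblasts of the Wnt16, Hhip or Col23a1 group gave 3.90, 1.62 and 2.08 CPM and satellite cells 1.87, 2.28 and 2.33 CPM, so these 3 classes overlapped. The secretory airway gate, where Gfra1 peaked under the fixed gates, gave 0.0631, 0 and 0.0900 CPM, and no UMI was found in endothelial, gland or neuroendocrine cells. The leukocyte value of library 3, 7.85 CPM, came from 1 cell.

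Nrtn (ENSMUSG00000039481; chromosome 17, 57058324 to 57064569, minus strand), the preferred ligand of Gfra2, was highest in mural cells, at 51.8, 59.8 and 41.6 CPM (51.1 ± 9.15, SD, n = 3), above every other class in every library. The mural value of library 2 came from only 14 cells. Ciliated cells followed at 28.2, 30.3 and 27.7 CPM with 26.1% of cells positive (23.8 to 28.6%), and neuroendocrine cells at 26.1, 29.98 and 18.1 CPM with 41.0% positive. Squamous basal cells gave 7.37, 14.3 and 6.05 CPM, fibroblasts of the Wnt16, Hhip or Col23a1 group 3.28, 7.18 and 2.41 CPM, and 0 of 269 leukocytes had a UMI (up to 1.12%). Library 2 was the highest in most epithelial classes, and the ciliated, neuroendocrine and gland classes overlapped with one another.

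Artn (ENSMUSG00000028539; chromosome 4, 117783113 to 117786993, minus strand), whose preferred co-receptor is encoded by Gfra3, was found in most epithelial classes. Squamous basal cells gave 10.9, 11.6 and 12.1 CPM (11.5 ± 0.620, SD, n = 3) with 16.0% of cells positive, the secretory squamous gate 10.8, 10.7 and 14.1 CPM, and the secretory airway gate 8.14, 7.87 and 11.2 CPM. Mural cells had the highest mean, at 10.9, 23.9 and 23.1 CPM, from 17 positive cells of 161. Fibroblasts of the Wnt16, Hhip or Col23a1 group gave 4.13, 3.94 and 4.15 CPM, satellite cells 0, 1.14 and 0 CPM, and no UMI was found in 574 endothelial cells (up to 0.523%). Ciliated cells were low, at 1.14, 1.95 and 2.90 CPM, and tuft cells gave 6.11, 0 and 4.18 CPM. Under the gates without Cyp2f2 in the secretory list and Dcn in the fibroblast list, chosen after seeing the data, the secretory airway level of Artn was 4.44, 4.56 and 3.67 CPM.

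**Figure D2:**
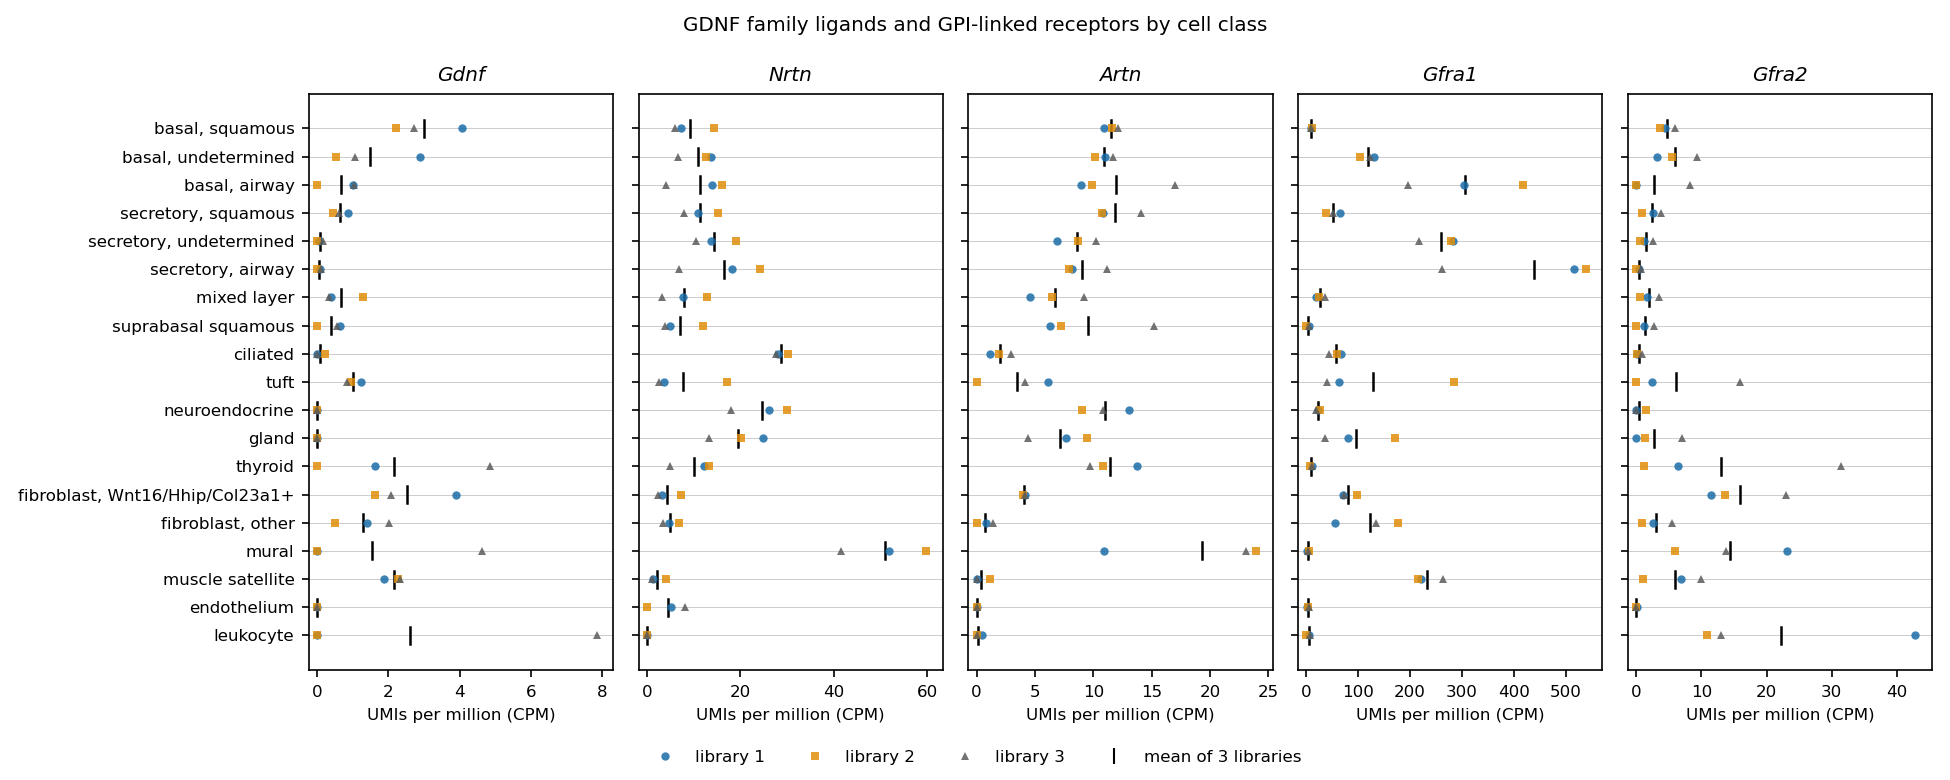
Levels of Gdnf, Nrtn, Artn, Gfra1 and Gfra2 in CPM for 19 cell classes, with 1 point for each of the 3 libraries and a black bar at their mean. Gfra1 is high in the airway classes, in the secretory gate of undetermined region and in satellite cells. Nrtn peaks in mural and ciliated cells, and Gfra2 in leukocytes and in fibroblasts of the Wnt16, Hhip or Col23a1 group.

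With 19 classes there are 18 pairs of neighbours in the order of means. Their ranges over the 3 libraries overlapped in 17 pairs for Bdnf, 16 for Ntf3, 15 for Ngfr, 16 for Ntrk2, 18 for Gdnf, 16 for Nrtn, 17 for Artn, 14 for Gfra1 and 18 for Gfra2. Most neighbouring ranks were thus not separated beyond the spread between libraries.

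Squamous and airway surface epithelium were next set side by side over all layers. Bdnf was 17.8, 20.7 and 24.1 CPM in the squamous region and 0.589, 0.986 and 0.752 CPM in the airway region, ratios of 30.3, 21.0 and 32.0. Gfra1 ran the other way, at 27.3, 17.5 and 19.0 CPM in the squamous region and 502, 528 and 251 CPM in the airway region, ratios of airway to squamous of 18.4, 30.2 and 13.2. Cells of undetermined region lay between for both genes, at 2.21, 3.34 and 2.71 CPM for Bdnf and 245, 218 and 185 CPM for Gfra1. Bdnf was thus higher in the squamous gate and Gfra1 in the airway gate in every library. The genes were proposed from earlier results of these data, so this is a description and not a test.

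Ntf3 and Artn differed little between the regions. Ntf3 had ratios of squamous to airway of 1.01, 1.16 and 1.19, and Artn of 1.22, 1.35 and 1.05. Ngfr was 51.3, 49.5 and 59.4 CPM in the squamous region and 18.9, 14.3 and 41.2 CPM in the airway region. The airway value of library 3 narrowed that ratio to 1.44, and only 311 of the 2949 airway cells were basal. Nrtn was higher in the airway region by factors of 2.17 and 1.65 in libraries 1 and 2 and of 1.02 in library 3, where no difference is seen. Gdnf was 2.54, 1.66 and 2.00 CPM against 0.118, 0 and 0.226 CPM, and Gfra2 3.44, 2.66 and 5.08 CPM against 0.413, 0 and 1.96 CPM, both lower in the airway region in each library. For Gdnf the ratio of squamous to airway was 21.6 in library 1 and 8.87 in library 3, from few UMIs.

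**Figure D3:**
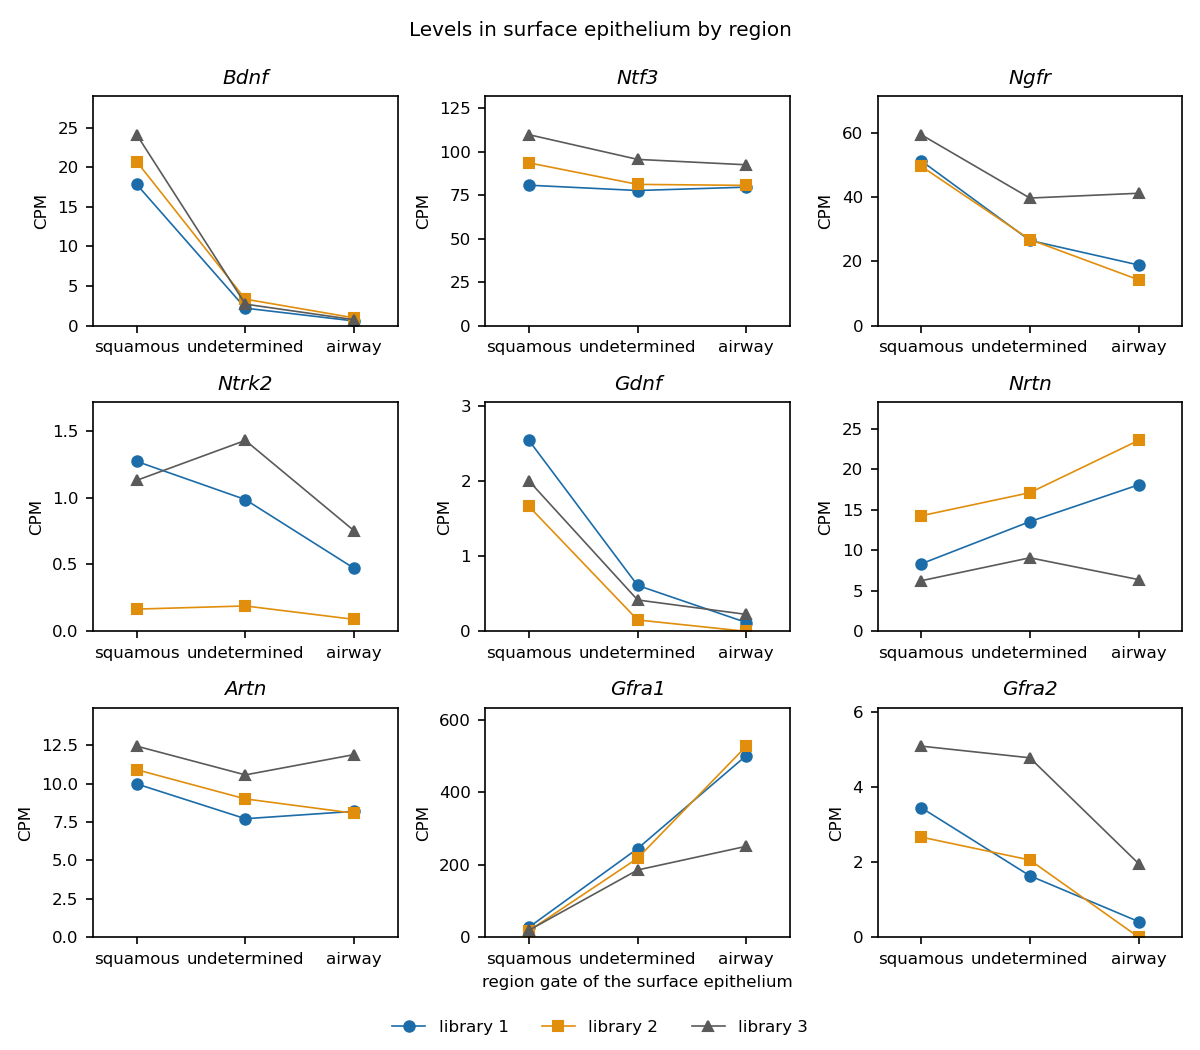
Levels in CPM of the 9 genes in squamous, undetermined and airway surface epithelium, with 1 line for each library. Bdnf falls from 20.9 ± 3.14 CPM in the squamous region to below 1 CPM in the airway region in all 3 libraries, while Gfra1 rises, and Ntf3 and Artn stay nearly level.

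For Bdnf and Gfra1 the contrast of the regions also held inside a layer. Ratios of squamous to airway basal cells were 1.38, 1.18 and 1.15 for Ngfr. For Nrtn they were 0.529, 0.894 and 1.47, with no common direction. Among basal cells the Bdnf level was higher in the squamous than in the airway region by factors of 9.09, 4.37 and 30.1, the airway values resting on 8 positive cells of 311. For Gfra1 the squamous level was 0.0317, 0.0253 and 0.0422 times the airway level among basal cells, and in the secretory gates the airway level was 7.87, 14.2 and 5.04 times the squamous level. Basal cells could also be divided without the region gate by a UMI of Nkx2-1, a transcription factor of airway epithelium, although Nkx2-1 is itself a gene of that gate. The 2904 basal cells with such a UMI gave 125, 107 and 71.1 CPM of Gfra1 against 16.4, 15.3 and 10.4 CPM in the other 7988, and 9.59, 6.22 and 9.81 CPM of Bdnf against 26.5, 27.8 and 33.5 CPM.

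The gates bear on the layer in which Gfra1 is placed. With Cyp2f2 left out of the secretory list and Dcn out of the fibroblast list, an alternative chosen after seeing the data, 4806 cells (10.8%) stayed unassigned. The Gfra1 level then was 652, 640 and 372 CPM in 2692 airway basal cells and 320, 277 and 110 CPM in 974 secretory airway cells, so the order of the layers turned around. The airway region as a whole gave 538, 559 and 301 CPM against 37.9, 23.0 and 28.1 CPM in the squamous region, and squamous basal cells gave 41.8, 23.3 and 27.8 CPM, above their level under the fixed gates in each library. The Gfra1 level was thus higher in the airway than in the squamous region under both sets of gates. Which airway layer had the higher level depended on the gates. Bdnf under the same gates was 21.7, 24.9 and 28.2 CPM in squamous basal cells and 0.467, 0.988 and 0.878 CPM in airway basal cells, where 21 of 2692 cells had a UMI. Among basal cells its contrast between the regions was thus wider in each library than under the fixed gates. Over all layers it was 18.2, 22.4 and 25.0 CPM in the squamous region and 0.627, 0.854 and 0.796 CPM in the airway region. That contrast was wider than under the fixed gates in library 2 only.

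Ret, the kinase of the GDNF family co-receptors, was barely detected where Gfra1 was highest. The airway region had 0.177, 0.0897 and 0.150 CPM of Ret, and of its 2343 cells with a Gfra1 UMI 4 had a Ret UMI (0.171%, 0.0664 to 0.438%). In satellite cells 47 of 645 Gfra1-positive cells had a Ret UMI (7.29%, 5.52 to 9.56%). The highest level of Ret was in neuroendocrine cells, at 85.7, 98.9 and 52.4 CPM with 62.9% of cells positive, where Gfra1 was 22.9, 25.5 and 18.1 CPM and 10 of 18 Gfra1-positive cells had a Ret UMI (55.6%, 33.7 to 75.4%). Ncam1, the other partner, had means of only 0.503 CPM in airway basal cells and 1.31 CPM in the secretory airway gate. It was highest in satellite cells, at 600 ± 84.8 CPM, followed by neuroendocrine cells at a mean of 281 CPM. The fibroblasts outside the Wnt16, Hhip or Col23a1 group also had both partners, with means of 143 CPM of Ncam1 and 5.13 CPM of Ret, and 20 of their 370 Gfra1-positive cells had a Ret UMI (5.41%, 3.53 to 8.20%), a share whose interval overlapped that of satellite cells.

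Sort1, which encodes sortilin, a partner of the p75 receptor, had a distribution unlike that of Ngfr. It was 183, 197 and 252 CPM in mural cells, where Ngfr had no UMI, and 3.81, 4.83 and 6.28 CPM in squamous basal cells, where Ngfr was highest. In the airway region it was 31.2, 30.04 and 29.8 CPM against 11.5, 9.52 and 11.3 CPM in the squamous region.

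Squamous basal cells were not uniform for the ligands. The 887 cells with at least 2 UMIs of Ntng1, Cntn5 or Wnt5b gave 33.2, 44.9 and 48.6 CPM of Bdnf against 26.3, 24.3 and 28.5 CPM in the other 7009, higher in each library. The same cells gave 11.7, 10.9 and 10.5 CPM of Sort1 against 2.70, 3.91 and 5.69 CPM. The 611 cells with at least 5 UMIs of Hbegf, Atf3 or Fosl1, genes that respond to stress and injury, gave 22.7, 12.7 and 14.0 CPM of Artn against 7.44, 11.5 and 12.0 CPM, a difference carried mainly by library 1. For Bdnf the same split gave 11.4, 32.0 and 25.7 CPM against 31.7, 26.1 and 31.3 CPM, with no common direction. Cells with many such UMIs were deeper, at a median of 22392 against 16920 UMIs, and the part of depth in these values was not tested.

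Other genes of these pathways were taken from lists made with earlier results of these data known. Of 10 other ligands, 6 exceeded 10 CPM in the mean of a class. Ntf5, the other ligand of TrkB, reached 44.0 CPM (41.6 to 46.1 over libraries) in the secretory airway gate. Clcf1 reached 41.0 CPM in satellite cells, while Manf was highest in thyroid cells, at 419 CPM. Gdf15 also had its highest mean in thyroid cells, at 28.3 CPM, but with a range of 1.21 to 65.2 CPM over libraries. The mean level of Ntf5 was 43.3 CPM in airway basal cells, 38.9 and 37.1 CPM in the basal and secretory gates of undetermined region, and 33.9 and 34.0 CPM in those of the squamous region.

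Of 13 other receptors, 10 exceeded 10 CPM in a class. Ntrk3, the receptor of Ntf3, reached 144 CPM (85.9 to 239) in mural cells, Gfra4 25.2 CPM (21.1 to 28.3) in fibroblasts of the Wnt16, Hhip or Col23a1 group, and Cntfr 78.4 CPM in the other fibroblasts. Sorcs2, a sortilin relative, reached 115 CPM in the secretory airway gate, Sdc3 110 CPM in leukocytes, and the cytokine receptor chains Lifr and Il6st 500 and 708 CPM in endothelium. Gfra3, the co-receptor of Artn, had 30 UMIs in all kept cells. Artn was therefore measured in cells among which its usual co-receptor was barely detected. Of 10 adaptors and processing enzymes, 9 exceeded 10 CPM in a class, led by Pcsk5 at 154 CPM and Maged1 at 117 CPM in fibroblasts of the Wnt16, Hhip or Col23a1 group, Kidins220 at 139 CPM and Bex3 at 130 CPM in neuroendocrine cells, Furin at 122 CPM in gland cells, Frs2 at 83.7 CPM in airway basal cells, Pcsk6 at 66.4 CPM and Shc1 at 53.8 CPM in the other fibroblasts, and Sh2b1 at 28.3 CPM in satellite cells.

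The genes whose profile over classes was most like that of each member were found by Pearson's r of log2(CPM + 1) over 51 sums, 17 classes by 3 libraries, among 14460 genes. The sums share libraries, so r is a description. Ngfr was closest to Col17a1 (r = 0.95), Stk26, Krt5, Cdh3 and Trim29, of which Col17a1, Krt5 and Cdh3 are known basal cell genes and Krt5 is in the basal gate. Ntrk2 was closest to Twist1 (r = 0.97), and Twist2, Gm46323 and Fgf10 were also among its 5 closest genes. Gfra1 was closest to Eya4 (r = 0.92), Pcdh9, Aldh6a1, Adcy2 and Plekha5. Each of these 3 receptors thus had genes that tracked it closely.

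The ligands were less closely matched. Ntf3 was closest to Arhgap42 (r = 0.88), Plcd3, Smad6, Yap1 and Ppp2r3a, and Artn to Rab38 (r = 0.87), Chl1, Chd3, Large2 and Id4. Bdnf was closest to Bhlhe22 (r = 0.81), Mrps5, Rangrf, Nudt3 and Rabggtb, and Nrtn to Rhbdd2 (r = 0.80), Arfgap3, Camsap3, Scnn1a and Fam241b, of which Scnn1a is in the airway gate. Gfra2 was closest to Htra2 (r = 0.73), Slc15a4, Plekha2, Socs1 and Nadk, and Gdnf to Srm (r = 0.65), Bicd2, Pla2r1, Fundc2 and Tmem43. Log2(CPM + 10) kept 4 of the 5 genes for Ntrk2 and Gfra1, 3 for Artn and Gfra2, 2 for Bdnf and Ntf3 and 1 for Ngfr, Gdnf and Nrtn, so most of these lists depend on the pseudocount.

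The study asked how cells that carry Lrig1 transcripts at collection differ from those that do not, and the members were examined in that contrast. A cell was called Lrig1+ with at least 1 Lrig1 UMI, a rule under which deeper cells are more often positive: Lrig1+ cells (5272, 4075 and 11690) had median depths of 14778, 17604 and 13917 UMIs, and Lrig1- cells (7950, 3126 and 12429) of 7031, 9567 and 6288 UMIs. Lrig1+ and Lrig1- sums were tested with edgeR's quasi-likelihood test over all genes but Lrig1, with Benjamini-Hochberg adjustment. Over all kept cells 1 of 19752 genes was called (0.00506%), and 0 of the 9 members was. The called gene was Il1b, named after its value was seen. It was lower in Lrig1+ sums by a log2 fold change of -6.89 with an adjusted p of 0.0233. At an unadjusted p under 0.05 there were 2739 genes, and DESeq2, which the study's methods name for this contrast, called 990.

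Since the Lrig1+ and Lrig1- cells of a library were drawn from 1 pool of larynges, the fit was also made with the library as a block, where 4786 genes were called (24.2%), 2108 higher and 2678 lower in Lrig1+ sums. Of the 9 members 3 were called higher and 2 lower. Ngfr was 30.4, 33.1 and 48.8 CPM in Lrig1+ sums against 18.8, 23.4 and 38.1 CPM (blocked log2 fold change 0.54 ± 0.07 SE, edgeR adjusted p = 0.0105). Bdnf was 7.94, 13.2 and 17.0 CPM against 6.35, 7.85 and 10.9 CPM (0.60 ± 0.11, adjusted p = 0.0222), and Ntf3 79.6, 90.4 and 106 CPM against 63.6, 83.4 and 94.3 CPM (0.23 ± 0.04, adjusted p = 0.0214). These 3 transcripts were higher in Lrig1+ sums in 3 of 3 libraries. Ntrk2 was 23.6, 6.24 and 12.4 CPM against 58.8, 23.4 and 29.1 CPM (-1.43 ± 0.14, adjusted p = 0.00663), and Gfra2 3.05, 1.92 and 5.10 CPM against 5.45, 3.47 and 7.25 CPM (-0.69 ± 0.12, adjusted p = 0.0208). The members' median blocked log2 fold change was 0.14, against 0.01 over all genes tested, and it was -0.01 without library 1.

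These sums hold all classes, so a different mix of cells and a different level per cell cannot be told apart in them. Fibroblasts, the main source of Ntrk2, were 11.2, 5.37 and 5.47% of Lrig1+ cells and 21.7, 11.4 and 10.3% of Lrig1- cells. With Lrig1- and Lrig1+ cells matched on library, class and depth, and with the block, 20.1% of all genes and 3 of the 9 members were called. Ntrk2 gave -0.16 ± 0.05 (edgeR adjusted p = 0.0766), Gfra2 -0.22 ± 0.10 (adjusted p = 0.195) and Bdnf 0.27 ± 0.10 (adjusted p = 0.103), none past the threshold. Ntf3 stayed higher at 0.14 ± 0.02 (adjusted p = 0.00531) and Ngfr at 0.18 ± 0.03 (adjusted p = 0.0105), and Gfra1 was now higher, at 0.26 ± 0.03 (adjusted p = 0.00225), where unmatched cells had given 0.14 ± 0.10 (adjusted p = 0.352). The members' median in these matched cells was 0.01. Without library 2 the blocked calls of Bdnf (adjusted p = 0.126), Ntf3 (0.0924), Ngfr (0.0821) and Gfra2 (0.122) were lost, and without library 3 those of Bdnf (0.0887) and Ntf3 (0.0847).

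In basal epithelial cells (10892 cells, all regions) 0 of 14907 genes were called without the block (0%), and 0 of the 9 members. At an unadjusted p under 0.05 there were 864 genes, and DESeq2 called 66. With the block 2354 genes were called (15.8%), with 3 members higher and 2 lower in Lrig1+ sums. Bdnf was 23.2, 23.5 and 29.9 CPM in Lrig1+ basal sums against 21.6, 18.0 and 19.2 CPM (0.39 ± 0.09, edgeR adjusted p = 0.0194), Ntf3 102, 106 and 130 CPM against 82.1, 93.7 and 111 CPM (0.21 ± 0.04, adjusted p = 0.00731), and Ngfr 62.1, 54.3 and 69.8 CPM against 49.4, 50.3 and 60.3 CPM (0.18 ± 0.05, adjusted p = 0.0280). All 3 were higher in 3 of 3 libraries, by small amounts. Their calls also held in matched cells, where 23.9% of all genes were called, with adjusted p of 0.0409 for Bdnf, 0.00302 for Ntf3 and 0.0207 for Ngfr. The median blocked log2 fold change of the members was -0.13, against -0.01 over all genes tested, and it turned to 0.19 over the 8 members tested in matched cells.

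Although Bdnf was higher in 3 of 3 libraries, its call did not hold under every alternative. It was lost without library 2 (adjusted p = 0.0595) and without library 3 (0.250), and Bdnf gave adjusted p of 0.0756 in squamous basal cells alone and 0.0887 under the gates without Dcn and Cyp2f2, where Ntf3 gave 0.0318 and 0.128 and Ngfr 0.0404 and 0.0218. The call of Ngfr was lost without library 1 (0.0563) and without library 3 (0.109). Ntrk2 was called lower in Lrig1+ basal sums at -1.34 ± 0.34 (adjusted p = 0.0260), from levels of 1.102, 0.2002 and 0.269 CPM against 2.92, 0.0970 and 0.792 CPM, which were lower in 2 of 3 libraries and near background in all. Without library 3 this call was lost (0.215), and Ntrk2 was not tested without library 1 or in matched cells because its counts fell under the filter.

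Gfra1 in basal cells turned when cells were matched on library, class and depth together, where class includes the region. Unmatched, it was 36.9, 40.5 and 26.5 CPM in Lrig1+ sums against 48.9, 39.9 and 33.3 CPM, called lower with the block at -0.28 ± 0.07 (edgeR adjusted p = 0.0292) and lost without library 3 (0.170). In the matched cells it was 46.4, 56.7 and 39.3 CPM against 44.7, 38.8 and 28.8 CPM, called higher at 0.33 ± 0.08 (adjusted p = 0.009996). Within squamous basal cells, where the region is fixed, the blocked value was -0.41 ± 0.14 (adjusted p = 0.0684) unmatched and 0.14 ± 0.15 (adjusted p = 0.574) matched, neither past the threshold. Gdnf, Nrtn, Artn and Gfra2 were not called in basal sums with the block, with log2 fold changes of -0.39 ± 0.18, -0.13 ± 0.10, -0.23 ± 0.11 and 0.10 ± 0.16.

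In airway epithelial cells 0 of 13069 genes were called without the block (0%), 154 had an unadjusted p under 0.05 and DESeq2 called 1, Lyz2, named after its value was seen. The 5 members with enough counts, Artn, Ntf3, Ngfr, Nrtn and Gfra1, were among those not called, and Bdnf, Ntrk2, Gdnf and Gfra2 did not pass the filter on low counts. With the block 97 genes were called (0.742%) and 0 of these 5 members. Gfra1 was 539, 541 and 273 CPM in Lrig1+ airway sums against 448, 505 and 214 CPM, higher in 3 of 3 libraries (0.18 ± 0.05, edgeR adjusted p = 0.189). In matched cells, where 2.71% of all genes were called, the levels of Gfra1 were 569, 614 and 312 CPM against 447, 500 and 207 CPM, and it was called at 0.34 ± 0.06 (adjusted p = 0.0075). Without library 2 the unmatched blocked fit called it too, at 0.27 ± 0.05 (adjusted p = 0.00598). The other 4 had blocked adjusted p of 0.592 to 0.929, with Artn at 0.25 ± 0.18, Ntf3 at 0.02 ± 0.07, Ngfr at -0.11 ± 0.10 and Nrtn at -0.20 ± 0.13.

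In fibroblasts 0 of 14043 genes were called (0%), 157 had an unadjusted p under 0.05 and DESeq2 called 0. With the block 4 genes were called (0.0285%), Parm1 higher and Col11a1, Cxcl13 and Chad lower, named after their values were seen, and none was a member. Ntrk2 was 238, 157 and 254 CPM in Lrig1+ fibroblast sums against 226, 192 and 250 CPM, a blocked log2 fold change of -0.05 ± 0.08 (edgeR adjusted p = 0.993), with its groups overlapping. The lower Ntrk2 of Lrig1+ sums over all cells was thus not seen within fibroblasts. Of the other members, Nrtn had the lowest blocked adjusted p, 0.932, at -0.56 ± 0.28, and Bdnf gave 0.41 ± 0.36, Gfra1 0.07 ± 0.07 and Gfra2 -0.32 ± 0.25. Whether the effects differ between classes was not tested.

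**Figure D4:**
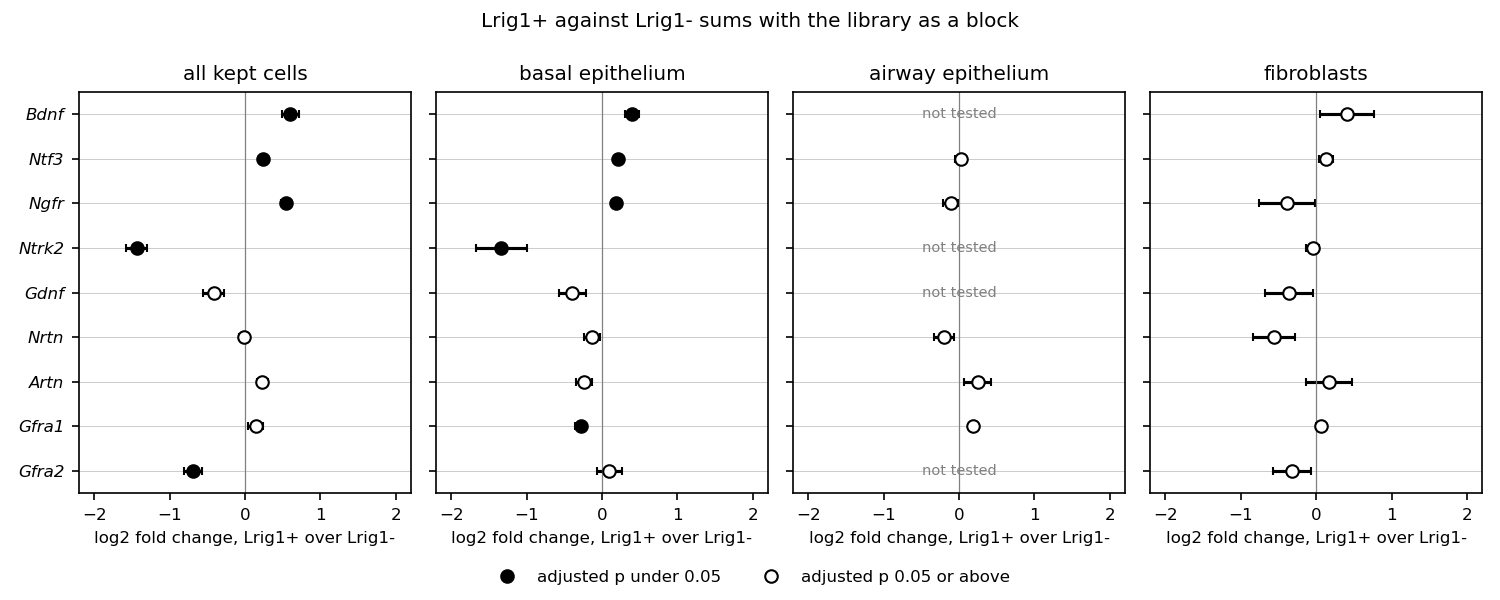
Log2 fold changes of the members in Lrig1+ against Lrig1- sums from edgeR with the library as a block, with bars of 1 SE, for all kept cells, basal cells, airway cells and fibroblasts. Filled points have an adjusted p under 0.05, which 5 members reach over all cells and 5 in basal cells, and none of the 5 tested in airway cells and none in fibroblasts. The same fits called 24.2% of all genes over all cells, 15.8% in basal cells, 0.742% in airway cells and 0.0285% in fibroblasts. Without the block no member was called in any of these comparisons.

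The lists of other pathway genes gave the following blocked counts, to be read beside the 24.2% of all genes called over all cells and the 15.8% called in basal cells. Over all cells 2 of 9 tested ligands were higher, among them Ntf5 at 0.33, and 2 lower, among them Gdf15 at -0.64, in Lrig1+ sums. Of 10 tested receptors 1 was higher (Sorcs2 at 0.58) and 4 were lower (Ntrk3 at -1.60, Cntfr at -1.28, Ncam1 at -0.85 and Gfra4 at -0.58), and of 10 adaptors and enzymes 1 was higher (Frs2 at 0.18) and 1 lower (Pcsk6 at -0.76). The 4 lower receptors were highest in stromal or muscle classes. Sort1, Lifr, Il6st and Sdc3 were also highest outside the epithelium and were not called. The medians of the 3 lists were -0.05, -0.52 and 0.01. In cells matched on library, class and depth, with the block, where 20.1% of all genes were called, 2 of the 10 receptors were higher (Sorcs2 at 0.32 and Il6st at 0.12) and 1 was lower (Ntrk3 at -0.61), with a median of 0.03, while 2 ligands (Manf and Cntf) were lower and 0 higher, and 3 adaptors and enzymes (Frs2, Kidins220 and Pcsk5) were higher and 2 (Pcsk6 and Bex3) lower.

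In basal cells 1 of 7 ligands was lower (Cntf at -0.85), 2 of 9 receptors were higher (Sort1 at 0.50 and Sorcs2 at 0.36) and 2 lower (Ntrk3 at -1.83 and Ncam1 at -1.05), and 2 of 10 adaptors and enzymes were lower (Pcsk6 at -0.58 and Bex3 at -0.17), with medians of -0.06, 0.05 and -0.01. Class means in the basal classes were low, at 1.02 to 6.04 CPM for Ntrk3 and 0.377 to 1.12 CPM for Ncam1. Leukocytes gave 1.02 and 4.36 CPM. In matched cells with the block, where 23.9% of all genes were called, 4 of 7 tested receptors were higher (Sort1 at 0.64, Sorcs2 at 0.42, Il6st at 0.18 and Lifr at 0.19) and 0 were lower. Of 7 ligands 2 were lower (Manf and Cntf), and of 10 adaptors and enzymes 1 was higher (Frs2) and 1 lower (Pcsk6). In airway cells and in fibroblasts the unmatched blocked fit called 0 genes of these lists. In matched airway cells with the block Sorcs2 (at 0.30) and Pcsk5 (at 0.36) were higher and Manf (at -0.27) and Bex3 (at -0.28) lower, and Sorcs2 was also called in airway cells under the gates without Dcn and Cyp2f2 with the block (at 0.23). Sort1, the partner of the p75 receptor, thus rose in Lrig1+ basal sums beside Ngfr, at 5.34, 5.73 and 7.74 CPM against 3.00, 4.17 and 5.66 CPM (edgeR adjusted p = 0.0291). This call of Sort1 was lost without any 1 of the libraries, with adjusted p of 0.0506, 0.0791 and 0.123 without libraries 1, 2 and 3.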

How the data were processed

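The deposited counts are UMI counts per gene and barcode, which the authors made with Cell Ranger 8.0.1 on the mouse genome build mm39, per the submitters' processing notes. A cell was kept if 500 to 8000 genes were detected, if its UMIs numbered 1000 to 40000 and if mitochondrial genes held no more than 8% of them, limits taken from the study's methods, which exchange the words genes and UMIs. Doublets were scored against simulated doublets (2000 variable genes, 30 principal components, 50 neighbours) and removed at 0.4% per 1000 barcodes. Classes came from fixed marker UMI gates.

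The members and lists were chosen with earlier results of these data known. The genes named are the members, the pathway lists and, for each member with at least 500 UMIs, the 5 genes of most similar profile. Few-called genes were named after their values were seen.

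UMI counts were summed per library for cells with and without a Lrig1 UMI and tested, two-sided, with edgeR 4.0.16 (TMM, filterByExpr, quasi-likelihood, Benjamini-Hochberg adjustment, threshold 0.05), leaving out Lrig1. The study's methods name DESeq2 for this contrast and name no block. Here edgeR without a block is the primary result, and DESeq2 is given as an alternative. Lrig1+ and Lrig1- cells of a library were drawn from 1 pool of larynges, and the deviations of their sums from the group means correlated at 0.419 to 0.847, so blocked values are given too. Matching on depth, called matched cells, drew equal or nearly equal numbers of Lrig1+ and Lrig1- cells within library, class and bins of UMI count. In airway cells the numbers were 431, 260 and 344 Lrig1+ cells and 433, 259 and 343 Lrig1- cells. Alternatives were RLE size factors, DESeq2 1.42.0, no filter on low counts, depth-matched cells, the block, libraries left out, doublets kept and, for levels, no quality limits. Gates without Dcn and Cyp2f2, squamous cells alone, and the block joined to these or to a left-out library were chosen after seeing the data. The procedure was tested on simulated data. Python 3.11.15, numpy 2.4.6, pandas 2.3.3, scipy 1.17.1, scikit-learn 1.9.0, R 4.3.3 and limma 3.58.1 were used. Without the block, p-values measure the spread between sums of 3 pools and treat the Lrig1+ and Lrig1- sums of a pool as independent. With the block, they measure how the difference within a pool varies between the 3 pools. Some genes of the pathway and profile lists are not reported here.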

Additional observations from a re-analysis of the deposited data

How the results depend on the processing

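The main limits are 3 pooled libraries, 10248 unassigned cells and a Lrig1 call that follows depth. Over all cells the count of called genes (1) became 990 with DESeq2, 4786 with the replicate block, 0 with depth-matched cells or doublets kept, 3699 with both depth matching and block, 0 to 0 without a library, and 520, 3000 or 3898 with the block and without a library. In basal cells (0) it became 66 with DESeq2, 2354 with the block, 3232 depth-matched with the block, 1880 in squamous cells with the block, 2415 when these were also matched, 2287 under the gates without Dcn and Cyp2f2 with the block, and 1015, 1329 or 2479 with the block and without a library. In airway cells (0) it became 1 with DESeq2, 97 with the block, 331 depth-matched with the block, 202 under those gates with the block, 0 to 1 without a library and 32, 170 or 291 with the block and without a library. In fibroblasts (0) it became 4 with the block, 8 depth-matched with the block, 19 under those gates with the block, and 6, 27 or 152 with the block and without a library. The level of Gfra1 in the secretory airway gate moved from 439 to 236 CPM under those gates. The level of Nrtn in ciliated cells moved from 28.7 to 26.7 CPM with doublets kept and to 26.1 CPM without quality limits, and the remaining 60 values, for each member in 1 class, its highest among those with at least 20 cells in every library, moved by less than the spread between libraries. Levels in other classes were not compared in this way, and some moved more under the gates without Dcn and Cyp2f2.

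Of the members' log2 fold changes, 29 turned sign under an alternative, 434 kept direction and side of the threshold and 42 passed it. Leaving out a library turned the sign of Nrtn (-0.10 to 0.049) and Gfra1 (-0.038 to 0.29) over all cells, of Gfra2 in basal cells (-0.041 to 0.41), of Ntf3 in airway cells (-0.040 to 0.13), and of Artn (-0.19 to 0.29), Ngfr (-0.62 to 0.058) and Ntrk2 (-0.11 to 0.046) in fibroblasts. With the replicate block as well, the turned values were 0.035 for Nrtn without library 2 and -0.015 for Gfra1 without library 1 over all cells, -0.059 for Gfra2 in basal cells without library 1, -0.019 and -0.031 for Ntf3 in airway cells without libraries 1 and 2, and -0.18 for Artn without library 1 and 0.047 for Ntrk2 without library 2 in fibroblasts. In cells matched on class and depth Gfra1 turned to 0.31 in basal cells, 0.33 with the block and 0.14 in squamous basal cells with the block, and in fibroblasts Artn turned to -0.078, -0.097 with the block, and Gfra1 to -0.023. Under the gates without Dcn and Cyp2f2, without and with the block, Gfra2 in basal cells turned to -0.035 and -0.024, Ntf3 in fibroblasts to -0.080 and -0.092 and Ntrk2 there to 0.052 and 0.051, and Gfra1 there to -0.097 without the block. Ngfr in fibroblasts turned to 0.19 with doublets kept. The cause was not tested.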

Other observations

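Cells left unassigned by the gates carried the members too. Their Gfra1 level was 360, 349 and 246 CPM in libraries 1, 2 and 3 and their Bdnf level 5.49, 13.9 and 12.6 CPM, and they held 30.6% of all Gfra1 UMIs and 13.5% of those of Bdnf.

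Satellite cells with a UMI of Myod1 or Myog, transcription factors of myogenic commitment, were compared with the others as a description. The 353 positive cells gave 208, 192 and 276 CPM of Gfra1 against 227, 229 and 257 CPM in 726 negative cells, with no common direction, and 1.80, 3.12 and 13.2 CPM of Ret against 7.59, 15.2 and 19.8 CPM, lower in each library. The 16 cells gated as glia held 20 UMIs of Gfra1 among 70817 UMIs (282 CPM, exact Poisson interval 173 to 436), 4 of Ntrk2, 3 of Ntf3 and 3 of Gdnf, and none of Bdnf, Ngfr, Nrtn or Artn.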
